A study of Mus musculus with 5 samples.

Results

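The amyloid precursor family, its secretases and the main brain apolipoproteins are described here by 9 genes chosen by name: App, Aplp1, Aplp2, Adam10, Bace1, Psen2, Ncstn, Apoe and Clu. All 9 were found among the 10329 genes of the deposited count table. All 9 had enough counts to enter the tests, which covered 9444 genes.

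App encodes the amyloid precursor protein, a single-pass membrane protein that is abundant in neurons, and Aplp1 and Aplp2 encode its paralogs. Shedding by the α-secretase Adam10 cleaves App within the amyloid-β region, whereas the β-secretase Bace1 makes the cut from which amyloid-β can be released by γ-secretase, a membrane complex that contains a presenilin and nicastrin. Apoe and clusterin (Clu) are secreted lipid carriers made largely by astrocytes, both bind amyloid-β, and variants of both genes are associated with Alzheimer disease in humans. All 9 proteins enter the secretory pathway, so their mRNAs are translated on ribosomes at the endoplasmic reticulum.

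The samples were hippocampal-cortical slices of 400 µm from wild-type male C57BL/6N mice aged 28 to 35 days, left to recover for 3 to 4 h and exposed to 20 µM homoharringtonine (HHT) for 0, 5, 10, 30 or 60 min. HHT stalls ribosomes that have just initiated, while those already elongating finish and leave, so the ribosome-protected fragments (footprints) that remain on a coding sequence report how far run-off has gone. The study is concerned with ribosome translocation and its control by FMRP; all 5 libraries used here are wild type. Each library came from a pool of 10 slices from 2 to 3 mice, with 1 library per time and no replicate. Vehicle was 0.05% DMSO, and vehicle-only slices kept for 5 to 60 min were not analysed here, so HHT, vehicle and further time in the bath cannot be told apart. Total counts were 7155147, 2787749, 2022152, 1504748 and 1346175 in time order. Intervals below are exact 95% intervals for counting error alone; reads carried no stated molecular identifiers, so amplification copies could make them too narrow.

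Levels are given as the deposited signal, which is the count per kilobase of the coding sequence (CDS) less 600 nt, divided by 1 factor per library. This scale is per length, so genes can be compared on it. At 0 min Apoe had the highest signal of the 9, 35217 (interval 34586 to 35858), rank 15 of 10329 genes. App followed with 24185 (rank 38) and Clu with 21648 (rank 43), and the intervals of these levels did not overlap. The place of Clu holds for the count table only. In the TPM table, described below, Clu ranked 1 of 18527 genes at 0 min. Aplp1 stood at 8582 and Aplp2 at 6629. The secretases lay far lower, with Ncstn at 949, Bace1 at 616, Adam10 at 343 and Psen2 at 153. None of the neighbours in this order overlapped in counting error at 0 min, but with 1 library the spread between pools is unknown.

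The order was not the same after 60 min. App then had the highest signal, 5846 (interval 5722 to 5972), and Apoe came second with 4205 (3985 to 4433). Clu had 2908, Aplp1 2062 and Aplp2 1557. By TPM, Clu ranked 1 at 60 min as well, so this order too is that of the count table. Ncstn had 198, Bace1 130, Adam10 113 and Psen2 38.5, and here the intervals of Bace1 (107.7 to 156.5) and Adam10 (96.9 to 130.4) overlapped. App was already ahead of Apoe at 5 min, with 11794 against 6996, and ranked 9 of all 10329 genes in that library.

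**Figure D1:**
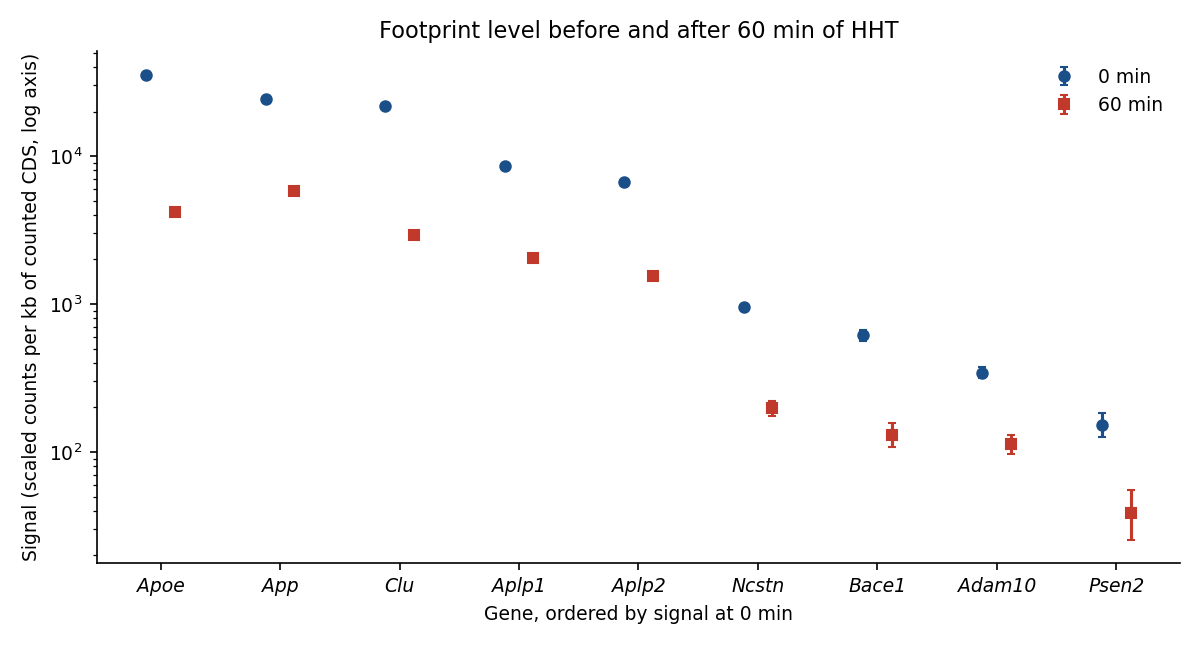
Deposited footprint signal (count per kilobase of CDS less 600 nt, per library factor, log axis) of the 9 genes at 0 and 60 min on HHT, with exact 95% counting intervals and 1 library per time. Apoe is highest at 0 min (35217) and App at 60 min (5846), and the secretases lie below the precursors and apolipoproteins at both times. By TPM, not shown here, Clu is highest at both times.

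Footprints on all 9 mRNAs fell with time on HHT. On the deposited library factors, 9 of 9 were called lower along log2(minutes + 1) in the quasi-likelihood test of edgeR (p-values adjusted over 9444 genes after Benjamini and Hochberg, threshold 0.05), against 94.2% of all genes tested, so the count does not set them apart. The slope is the log2 change for each step of 1 in log2(minutes + 1). It was steepest for Apoe at -0.52 (SE 0.077, adjusted p = 0.000183) and Clu at -0.47 (SE 0.073, adjusted p = 0.000196). Adam10 had the shallowest, -0.28 (SE 0.071, adjusted p = 0.00232), next to Psen2 with -0.29 (SE 0.10, adjusted p = 0.0143). App, Aplp1, Aplp2, Bace1 and Ncstn had slopes of -0.34, -0.35, -0.34, -0.38 and -0.38, and the median over all genes was -0.41. With minutes in place of log2(minutes + 1), 0 of 9 were called and 24 of 9444 genes were. Without the 0 min library, 6 of 9 were called; Adam10 (adjusted p = 0.0628), Bace1 (0.107) and Psen2 (0.795) were not, and the slope of Psen2 was 0.04. The order of the slopes also turned without that library: Apoe (-0.23) and Clu (-0.26) were then shallower than App (-0.27), Aplp1 (-0.28), Aplp2 (-0.29) and Ncstn (-0.27).

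Set against the other mRNAs, the slope test did not single out any of the 9. A missing call here does not show that a gene moved with the others. The same test called 0 of 11 tested microglial markers. The 12 measured had a median ratio of signal at 60 min to 0 min of 0.0488, against 0.181 over all genes. With TMM scaling, which removes the loss common to all genes, 0 of 9 were called higher and 0 of 9 lower by edgeR's quasi-likelihood test, where 0% and 0.0106% of 9444 genes were. Over all genes, 637 rising and 518 falling slopes had an unadjusted p under 0.05, and DESeq2's Wald test called 36 and 37 genes. Relative slopes were 0.12 for Adam10 (SE 0.063, adjusted p = 0.487) and 0.12 for Psen2 (adjusted p = 0.583) at one end, and -0.11 for Apoe (adjusted p = 0.593) and -0.06 for Clu (adjusted p = 0.784) at the other. App, Aplp1, Aplp2, Bace1 and Ncstn lay between 0.02 and 0.06. In all, 7 of 9 slopes were above 0, beside 48.4% of all genes. The sign for App, Aplp1, Aplp2, Ncstn and Apoe turned without the 0 min library, that for Bace1 without the 60 min library, and those for Bace1, Ncstn and Clu when limma was run on log2(TPM + 1). Without the 0 min library the slopes of Psen2, Adam10 and Clu were 0.30, 0.07 and -0.0020. With 1 library per time these slopes have 3 residual degrees of freedom, and differences between single times below carry no p-value. Footprints depend on both the amount of an mRNA and the ribosomes on it, and in bulk tissue fewer cells of a type and less RNA per cell cannot be told apart.

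**Figure D2:**
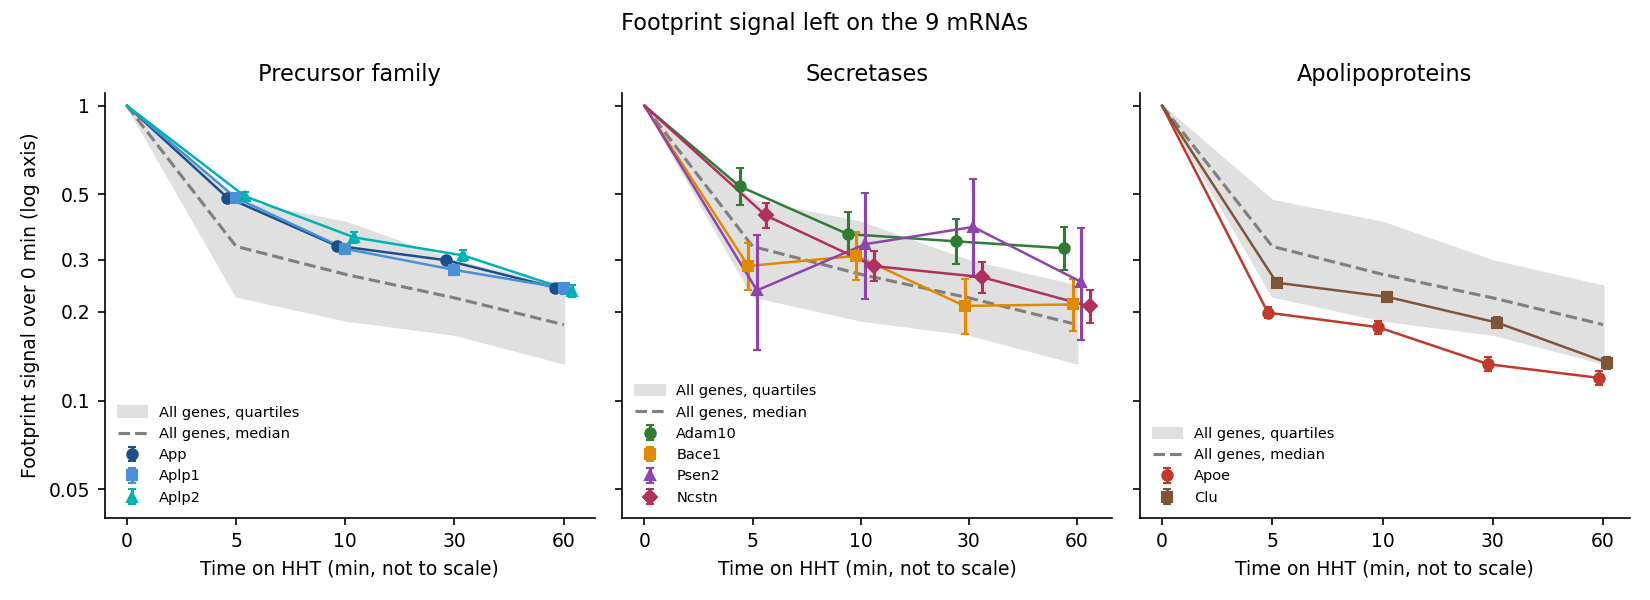
Footprint signal relative to 0 min (log axis) for the precursors, secretases and apolipoproteins at 5, 10, 30 and 60 min, with exact 95% counting intervals; the dashed line and grey band are the median and quartiles of 10329 genes. The precursors run above the median at every time, Apoe and Clu below it, and Psen2 and Bace1 have the widest intervals of the 9.

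The 3 precursors kept more footprints than the median gene at every time, and kept them in step with each other. App (transcript NM_007471, chromosome 16, 84952666 to 85175255 in GRCm38, CDS 2088 nt) had 35988, 16939, 9984, 9494 and 8467 counts at 0, 5, 10, 30 and 60 min. Its signal relative to 0 min was 0.488, 0.335, 0.299 and 0.242 (interval at 60 min 0.236 to 0.248), where the medians over all 10329 genes were 0.333, 0.268, 0.223 and 0.181. App thus lay between the median and the upper quartile (0.245) at 60 min, above 74.1% of genes. All these ratios share the single 0 min library.

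Aplp1 (NM_007467, chromosome 7, 30434980 to 30445582, CDS 1965 nt), the family member found mainly in neurons, had 11714, 5497, 3172, 2864 and 2740 counts and ratios of 0.486, 0.327, 0.277 and 0.240. Aplp2 (NM_001102456, chromosome 9, 31149557 to 31211848, CDS 2124 nt), which is expressed in many tissues, had 10102, 4808, 2992, 2766 and 2310 counts and ratios of 0.493, 0.358, 0.311 and 0.235. The intervals of the 3 ratios overlapped at 60 min. About the same part of the 60 min loss had occurred by 5 min in each, 67.6% for App, 67.6% for Aplp1 and 66.3% for Aplp2.

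The make-up of the family hardly moved. App held 61.4, 61.3, 61.0, 62.0 and 61.8% of the summed signal of the 3 genes in time order, while that sum fell to 0.240 of its 0 min value. Counts of one gene over another in the same library do not depend on a library factor. By that measure App over Aplp1 at 60 min was 1.01 times its 0 min value (interval 0.959 to 1.06), App over Aplp2 1.03 (0.977 to 1.08) and Aplp1 over Aplp2 1.02 (0.962 to 1.09), so all 3 intervals included 1. At 30 min Aplp1 over Aplp2 was 0.893 (0.842 to 0.947) and App over Aplp1 1.08, so the family was not identical at every time within counting error.

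The secretases did not move as one group. Adam10 (NM_007399, chromosome 9, 70678944 to 70780229, CDS 2250 nt), the main α-secretase of neurons, had 566, 291, 172, 173 and 181 counts. Its ratios to 0 min were 0.533, 0.367, 0.347 and 0.329 (0.276 to 0.389 at 60 min), and at 60 min 89.6% of all genes had a lower one. It was nearly level from 10 min on, with steps of 0.945 (0.761 to 1.17) from 10 to 30 min and 0.948 (0.765 to 1.17) from 30 to 60 min, where the medians over genes were 0.847 and 0.815.

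Bace1 (NM_011792, chromosome 9, 45838545 to 45862484, CDS 1506 nt), the β-secretase, began near the same count and had 558, 154, 143, 103 and 115. Its ratios were 0.286, 0.309, 0.209 and 0.212 (0.172 to 0.259 at 60 min), and 90.6% of its 60 min loss was present at 5 min. Counts of Adam10 over Bace1 were 1.86 times the 0 min value at 5 min (1.48 to 2.36), 1.19 at 10 min (0.916 to 1.54), 1.66 at 30 min and 1.55 at 60 min (1.19 to 2.04). The α-secretase therefore kept a larger part of its footprints than the β-secretase at 5, 30 and 60 min beyond counting error, but not at 10 min. Set against 5 min in place of 0 min, the change at 60 min was 0.833 (0.607 to 1.14), an interval that included 1. The CDS of Adam10 is the longer one. At 5 min genes of like CDS length, described below, had a median ratio of 0.395 for Adam10 and 0.274 for Bace1. At 60 min these medians were close, 0.176 and 0.173. Counts of one gene over the other do not allow for this difference in length.

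Among subunits of γ-secretase, Ncstn (NM_021607, chromosome 1, 172066013 to 172082789, CDS 2127 nt), which encodes nicastrin, the large glycoprotein subunit, had 1449, 594, 343, 335 and 294 counts. Its ratios of 0.425, 0.286, 0.262 and 0.208 (0.183 to 0.236 at 60 min) lay within the quartiles of all genes at every time. Psen2 (NM_011183, chromosome 1, 180227004 to 180263467, CDS 1347 nt), one of the presenilins that form the catalytic core, had 114, 26, 32, 39 and 28 counts. Its ratios of 0.236, 0.339, 0.388 and 0.252 were not in time order, and the interval at 60 min, 0.161 to 0.384, ran from below the median of all genes to above the upper quartile. Ncstn over Psen2 was 1.80 times its 0 min value at 5 min (1.15 to 2.90) and 0.826 at 60 min (0.531 to 1.32). At this depth no difference between these subunits was detectable at 60 min against 0 min. Set against 5 min in place of 0 min, the change at 60 min was 0.460 (0.254 to 0.830), an interval below 1. Psen2 had only 26 counts at 5 min. The APH-1 subunit gene Aph1a had a ratio of 0.205 at 60 min (0.119 to 0.339), which overlapped the intervals of Ncstn and Psen2.

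In the count table Apoe and Clu lost more footprints than the median gene, and most of the loss was present at 5 min. The TPM table did not show this for Clu, as described below. Apoe (NM_009696, chromosome 7, 19696244 to 19701310, CDS 936 nt) had 11833, 2269, 1737, 1385 and 1375 counts and ratios of 0.199, 0.177, 0.133 and 0.119 (0.113 to 0.126 at 60 min). Clu (NM_013492, chromosome 14, 65968483 to 65981548, CDS 1347 nt) had 16171, 3917, 3010, 2619 and 2114 counts and ratios of 0.251, 0.225, 0.184 and 0.134 (0.128 to 0.141). At 60 min only 17.9% of genes had a lower ratio than Apoe and 25.2% a lower one than Clu. By 5 min 91.0% of the 60 min loss had occurred for Apoe and 86.5% for Clu, in contrast to the 67.6% of App. Genes of like CDS length, described below, had median ratios at 5 and 60 min of 0.206 and 0.170 for Apoe. These medians were 0.257 and 0.177 for Clu, and 0.369 and 0.174 for App. Genes as short as Apoe and Clu thus also lost most of their footprints by 5 min.

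Counts of App over Apoe were 2.45 times the 0 min value at 5 min and 2.02 times at 60 min (1.91 to 2.15), and those of App over Clu were 1.80 times at 60 min (1.71 to 1.90). Clu over Apoe was 1.13 (1.05 to 1.21) at 60 min. All 3 differences were present at 5 min. From 5 to 60 min the changes were 0.825 (0.767 to 0.887) for App over Apoe, 0.926 (0.873 to 0.983) for App over Clu and 0.891 (0.817 to 0.971) for Clu over Apoe, all in the opposite direction. Over that whole span App lost a larger part than Apoe or Clu. The steps from 5 to 10 min were 0.687 for App, 0.673 for Aplp1 and 0.725 for Aplp2. They were 0.892 for Apoe and 0.896 for Clu, around a median over genes of 0.849. After 10 min this did not hold at each step. From 10 to 30 min App kept the larger part, with 0.893 against 0.749 for Apoe and 0.817 for Clu. From 30 to 60 min the steps were 0.808 for App, 0.899 for Apoe and 0.731 for Clu.

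Markers of the cell types in the slices lost footprints to different degrees in the same libraries. The summed signal of 13 measured astrocyte markers of 14 listed was 0.212, 0.170, 0.133 and 0.106 of its 0 min value, and 1 of the 13, Ntsr2, lay above the median ratio of all genes at 60 min. The sum for 12 measured microglial markers of 14 was 0.121, 0.0632, 0.0464 and 0.0493, with 0 of 12 above that median and Trem2 at 0 counts at 30 min. For 8 measured endothelial and mural markers of 10 it was 0.418, 0.487, 0.334 and 0.299, a higher sum than for any of the other lists of over 2 measured markers at every time. For 11 measured neuronal markers of 12 it was 0.341, 0.298, 0.271 and 0.236, and for 9 oligodendrocyte markers of 12 it was 0.216, 0.163, 0.125 and 0.0745. Median ratios gave another order at the later times. The endothelial and mural median was 0.255 at 30 min and 0.219 at 60 min, below the neuronal 0.274 and 0.237. The median CDS of the endothelial and mural markers was 2826 nt, against 1632 nt for the neuronal ones. The ratios of Apoe and Clu lay near that of the astrocyte sum and that of App near the neuronal sum at 60 min; at 5 min App (0.488) lay above it. The part of these markers in the results for Apoe, Clu and App was not tested. Neuronal and astrocyte markers such as Camk2a (24789 counts at 0 min) and Slc1a2 (28406) were abundant, which fits the brain label. In the count table only 2 of 8 choroid plexus, ependymal and blood markers, Kl and Foxj1, were listed, and together they had 129 counts before HHT and 75 after 60 min.

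Ribosomes take longer to clear a long CDS, and the 9 CDS run from 936 nt (Apoe) to 2250 nt (Adam10), so each gene was set beside genes with a CDS within 10% of its length and at least 50 counts at 0 min. This is a description with no test. Adam10 had 1.86 times the median ratio of 982 such genes at 60 min, and 94.1% of them had a lower ratio. App, Aplp1 and Aplp2 had 1.39, 1.38 and 1.34 times the median of their like, with 76.1 to 78.4% of those genes lower. Psen2 had 1.43 times, Bace1 1.23 times and Ncstn 1.18 times, at 28, 115 and 294 counts. Over their counting intervals, 42.4 to 95.8% of like genes were lower for Psen2, 49.7 to 85.3% for Bace1 and 55.4 to 76.4% for Ncstn. Psen2 and Bace1 thus did not differ from the median of their like beyond counting error. Apoe stood at 0.704 times and Clu at 0.758 times, with 20.6% and 25.9% of their like lower.

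At 5 min the picture for the apolipoproteins was another. Apoe was then at 0.966 times and Clu at 0.977 times the median of genes of like length, and those medians were themselves lower than the one for App (0.206 for Apoe, 0.257 for Clu and 0.369 for App). The gap to genes of like length opened later, with Apoe at 0.886, 0.640 and 0.704 times at 10, 30 and 60 min and Clu at 0.985, 0.847 and 0.758. App was above its like from the start, at 1.32, 1.33, 1.39 and 1.39 times. Adam10 moved from 1.35 times at 5 min to 1.86 times at 60 min. The deposited counts leave out 600 nt of each CDS, which leaves 71.3% of that of App, 55.5% of that of Clu and 35.9% of that of Apoe.

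**Figure D3:**
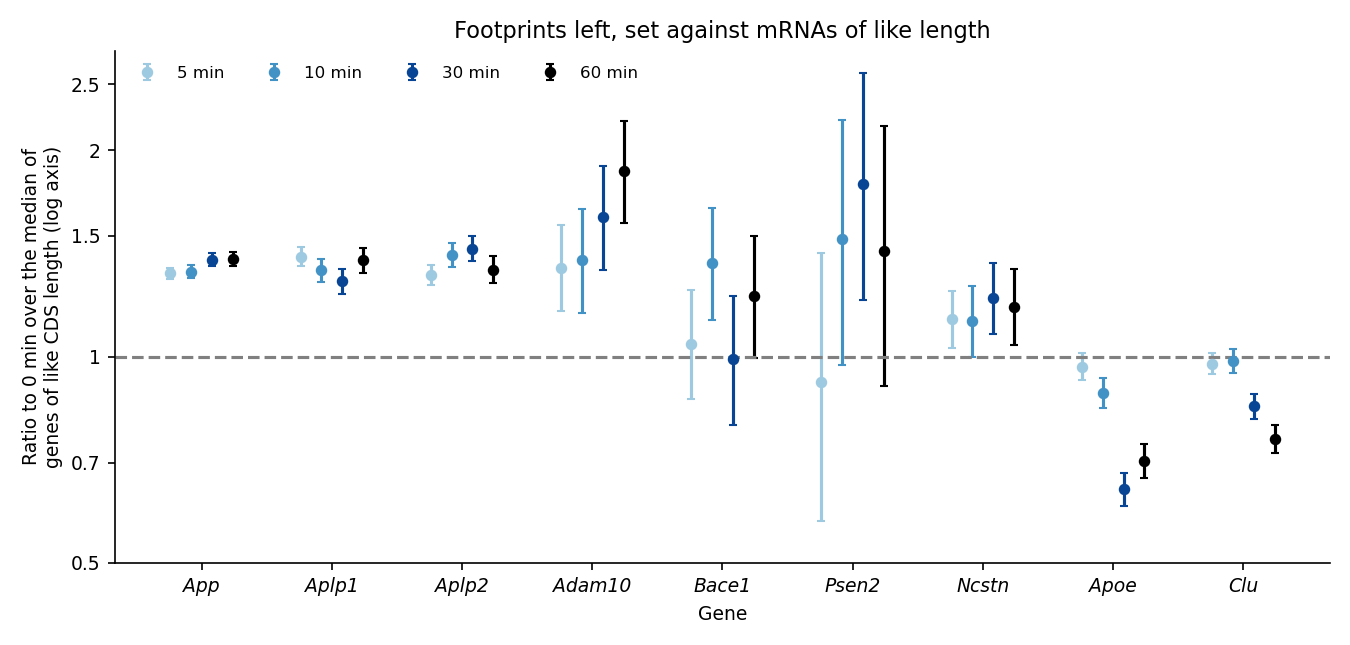
Ratio to 0 min of each of the 9 genes divided by the median ratio of genes with a CDS within 10% of its length and at least 50 counts at 0 min (log axis), by time on HHT. Adam10 ends highest at 1.86, the 3 precursors stay between 1.29 and 1.44, and Apoe and Clu pass from near 1 at 5 min to 0.704 and 0.758 at 60 min.

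Some of the 9 have nearly the same CDS length, and these pairs, chosen after their values were seen, compare genes at like length directly. Psen2 and Clu both have a CDS of 1347 nt. Counts of Psen2 over Clu were 0.942 times the 0 min value at 5 min (0.589 to 1.45), 2.11 times at 30 min (1.43 to 3.07) and 1.88 times at 60 min (1.19 to 2.87), so at equal length Psen2 kept the larger part at the later times in the count table. TPM over mitochondrial TPM, described below, gave the opposite order, with 0.382 for Psen2 against 0.445 for Clu at 30 min and 0.254 against 0.295 at 60 min. Ncstn and Aplp2 differ by 3 nt, and Ncstn over Aplp2 was 0.861 at 5 min (0.777 to 0.954) and 0.887 at 60 min (0.774 to 1.01). Adam10 over Aplp2 was 1.08 (0.931 to 1.25) at 5 min and 1.40 (1.17 to 1.67) at 60 min.

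The other deposited table, of TPM rounded to whole numbers for 18527 genes, gave the same course for 8 of the 9 genes and another for Clu. TPM per unit of signal, divided by its median over 5282 genes in the same library, lay between 0.937 and 1.25 for these 8 genes at every time. For Clu it was 14.0, 34.3, 49.3, 33.5 and 30.6, the highest of the 5282 genes in each library. In the TPM table Clu ranked 1 in all 5 libraries, with 31278, 64175, 87179, 56870 and 45293 TPM. It held 3.13% of all TPM at 0 min and 8.72% at 10 min, against 0.226% and 0.149% of the counts. TPM scaled to 6 mitochondrially encoded genes gave ratios to 0 min of 0.600, 0.795, 0.445 and 0.295 for Clu, where the count table gave 0.251, 0.225, 0.184 and 0.134. The direction was lower in both, but by TPM Clu lay above the median gene of the count table (0.333, 0.268, 0.223 and 0.181) at all 4 times, and App over Clu at 60 min was 0.820 in the TPM table against 1.80 in the counts. No source used here says how the tables differ in their treatment of reads, so the values of Clu rest on which table is read. The slopes above are from counts.

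**Figure D4:**
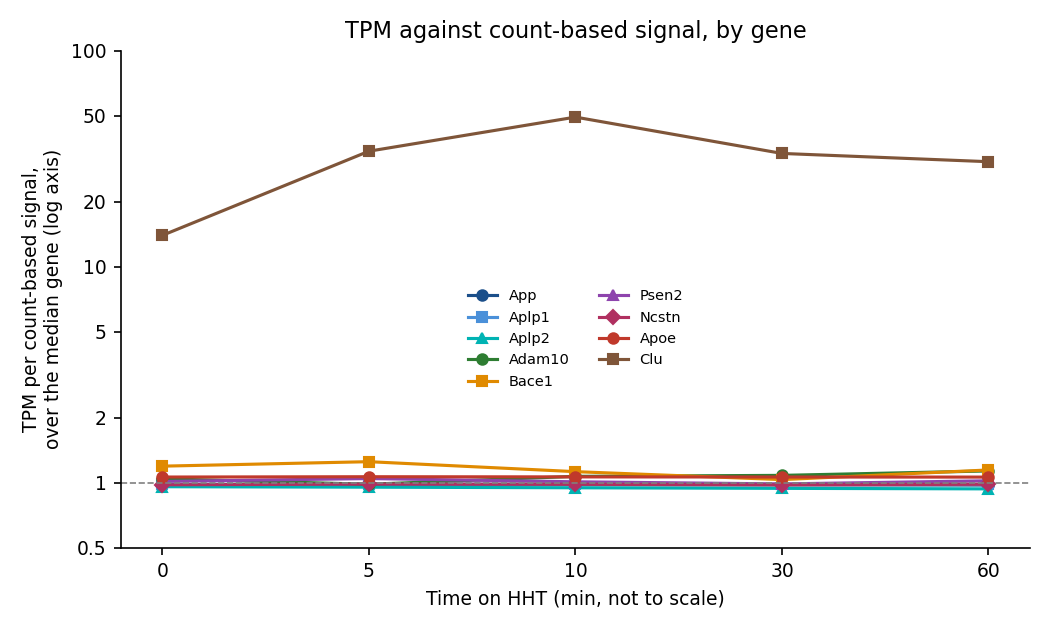
TPM divided by count-based signal for each of the 9 genes, over the median of that quotient across 5282 genes of the same library (log axis), by time on HHT. A value of 1 means that both tables give a gene the same standing; 8 genes lie between 0.937 and 1.25 and Clu between 14.0 and 49.3.

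The wider pathway was read through 6 lists holding 127 genes, of which 112 were in the count table and 107 were tested. On the deposited library factors 105 of 107 were called lower and 0 higher, next to 94.2% and 0% of all genes. The exceptions were the endocytic receptor gene Lrp2 (slope -0.33) and the scaffold gene Mapk8ip1 (slope -0.16). Lrp2 had only 15, 12, 18, 1 and 4 counts in time order, so its missing call does not show that it kept its footprints. Relative to other mRNAs 0 of 107 were called in either direction. Secretase substrates, which include many synaptic and axonal membrane proteins, had a median ratio of 0.223 at 60 min, and 22 of 27 lay above the median of all genes (0.181). Their highest was the growth factor gene Nrg3 at 0.307 (0.230 to 0.405) and their lowest the hyaluronan receptor gene Cd44 at 0.0677 (0.0331 to 0.124).

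Adaptors and partners of App had a median of 0.186, with 8 of 16 above the median of all genes. Mapk8ip1 encodes JIP1, which can link App to kinesin, and it had ratios of 0.441, 0.452, 0.544 and 0.477, the highest of the list at 60 min. Its relative slope was 0.25 (adjusted p = 0.187), short of the threshold. Apbb1ip, an adaptor of blood and microglial cells, went from 115 counts to 5 between 0 and 60 min, a ratio of 0.0447 (0.0142 to 0.107).

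The other secretases and their modulators had a median of 0.195, with 14 of 22 above the median of all genes. Tspan5, a tetraspanin that binds Adam10, had the highest ratio at 60 min among genes of the list with at least 100 counts at 0 min, 0.379 (0.310 to 0.461), and its interval overlapped that of Adam10. Among the same genes, the retromer subunit gene Vps26b had the lowest, 0.0959 (0.0734 to 0.124). Adam17, another shedding protease, had 0.136 (0.0839 to 0.210), and its interval lay below that of Adam10. Bace2, the paralog of Bace1, went from 45 counts to 19, a ratio of 0.434 (0.240 to 0.757).

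Lipoprotein receptors and lipid carriers had a median ratio of 0.218, with 16 of 24 above the median of all genes. Several have very long CDS, and these kept most of their footprints to 10 min. Lrp1, an endocytic receptor for Apoe with a CDS of 13638 nt, had ratios of 0.747, 0.944, 0.533 and 0.312, and Sorl1, a sorting receptor of App with a CDS of 6648 nt, had 0.726, 0.847, 0.365 and 0.310. Medians of genes of like length were 0.728, 0.884, 0.466 and 0.255 for Lrp1, and 0.655, 0.747, 0.270 and 0.202 for Sorl1. Abca1, the transporter that loads lipid onto Apoe, had 0.690, 0.689, 0.220 and 0.129, and its like 0.661, 0.760, 0.279 and 0.203. The sterol transporter gene Abcg1 had the lowest value at 60 min among genes of the list with at least 100 counts at 0 min, 0.0994 (0.0817 to 0.120).

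Enzymes that degrade amyloid-β, with their inhibitors, had a median of 0.175, with 6 of 12 above the median of all genes. Ide, the insulin-degrading enzyme, had ratios of 0.466, 0.287, 0.187 and 0.136. The angiotensin-converting enzyme gene Ace was highest at 60 min with 0.362 (0.285 to 0.458), and the neurolysin gene Nln lowest with 0.124 (0.0938 to 0.160).

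**Figure D5:**
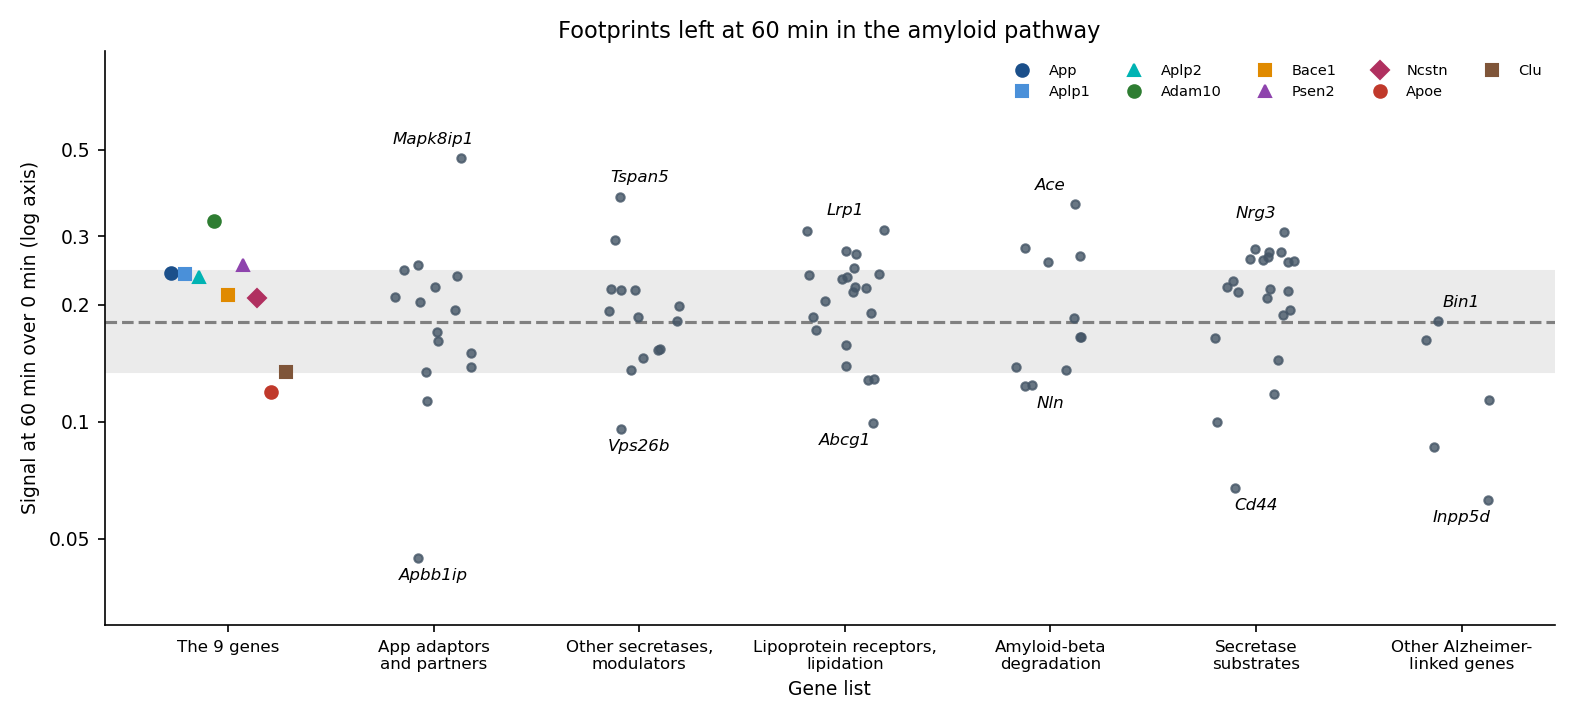
Signal at 60 min over 0 min (log axis) for the 9 genes and for genes of 6 pathway lists with at least 100 counts at 0 min, 1 point per gene; the dashed line and band are the median and quartiles of all 10329 genes, and the highest and lowest of each list are named. Mapk8ip1 (0.477) and Apbb1ip (0.0447) span the range, Adam10 is the highest of the 9 and Apoe the lowest.

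Genes with the course most like those of App, Apoe and Clu were found by Euclidean distance over the 4 log2 ratios to 0 min among 5208 genes with at least 200 counts at 0 min and 20 at 60 min. The nearest to App were Rnf40 (distance 0.0757), Fcho1 (0.0834) and Srgap2 (0.0901). Aplp1 and Aplp2 came 10th and 11th nearest of these 5208, at 0.116 and 0.117. The nearest to Apoe were Ube2j1 (0.104), Atl2 (0.115) and Sept4 (0.163), and to Clu they were Tbc1d19 (0.0990), Cops4 (0.105) and H2afy (0.134). All distances share the same 5 libraries and are a description of these pools.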

How the data were processed

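Footprints were measured in 5 libraries, 1 per time. The submitters' processing notes name cutadapt 1.7.1, Trimmomatic 0.32, Bowtie2 2.1.0, TopHat2 2.0.9, SAMtools 0.0.19 and mm10, with no roles; the deposited data's names add RSEM on CDS without their ends. The authors deposited expected counts for 10329 genes, whole as listed, with 1 transcript per gene, so isoforms are not told apart. The same deposited table gives a signal (count per kilobase of CDS less 600 nt, over library factors of 1, 0.965, 0.828, 0.882 and 0.973, origin not given in the sources used here) and its ratio to 0 min. A further table of the authors gives a score, TPM rounded to whole numbers. Positions are from the GRCm38.p6 annotation, and all 9 transcripts matched it.

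Slopes on log2(minutes + 1) were fitted over all genes with a mean of at least 10 counts with edgeR 4.0.16 in R 4.3.3, with TMM or with the deposited factors as offsets. The fits were also run on simulated counts with the same dispersion for all genes. The slopes put in were larger than the relative slopes of the 9 genes, so that run does not show what the fits detect at slopes of this size. DESeq2 1.42.0 and limma 3.58.1 on log2(TPM + 1) were alternatives, as were other scalings and reference times, minutes, and leaving out each library. Intervals are exact: Poisson for signals, conditional binomial for ratios to 0 min and steps, and conditional odds-ratio intervals for one gene over another. Lists hold 6 pathway and 6 marker groups; the text names all 9 genes, a set of pathway genes (Bace2, Adam17, Lrp1, Sorl1, Abca1 and Ide; others of the set are not reported here), each pathway list's highest and lowest ratio at 60 min among genes with at least 100 counts at 0 min, and the 3 nearest genes to App, Apoe and Clu. Aph1a, Aph1b, Aph1c and the markers named were added after their values were seen. Genes and lists were chosen with earlier results of these data known. No time has a replicate.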

Additional observations from a re-analysis of the deposited data

Results flagged for a closer look

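Clu was the most abundant gene of the TPM table and was above its 0 min TPM of 31278 at each later time, with 64175, 87179, 56870 and 45293 at 5, 10, 30 and 60 min, although its count-based signal was lower than at 0 min at all 4 times. Outside the count table, the APH-1 subunit gene Aph1b had 39, 56, 6, 124 and 82 TPM in time order, with the highest value, 124, at 30 min. Its near-identical copy Aph1c had 1, 7, 3, 0 and 3 TPM; how reads shared by the copies were counted is not stated, so both genes' values are uncertain. TPM is a share within a library, so a higher TPM is relative to the other mRNAs.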

How the results depend on the processing

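The cause of the changes below was not tested. Relative to other mRNAs, 1 gene was called lower and 0 higher; DESeq2 size factors gave 3 lower, DESeq2's Wald test 37 lower and 36 higher, limma on log2(TPM + 1) 0 lower, and leaving out 1 library in turn 0 to 874 lower and 0 to 440 higher (the highest without 0 min), with 0 of the 9 genes called under any of these. Signs turned with limma for Bace1 (-0.030), Ncstn (-0.0055) and Clu (0.095), and leaving out 1 library gave slopes of -0.016 to 0.080 for App, -0.025 to 0.064 for Aplp1, -0.034 to 0.094 for Aplp2, -0.0026 to 0.085 for Bace1, -0.017 to 0.038 for Ncstn, -0.15 to 0.027 for Apoe, 0.085 to 0.30 for Psen2, 0.070 to 0.14 for Adam10 and -0.071 to -0.0020 for Clu. On the deposited factors 8900 genes were called lower; minutes gave 24 genes and 0 of 9, and leaving out 1 library 4114 to 9173 lower, 0 to 46 higher and 6 to 9 of 9, with Psen2 at -0.33 to 0.042. The 60 min ratio of Clu was 0.134 from counts and 0.295 from TPM over mitochondrial TPM. At 30 min in place of 60 min, changes were 1.08 (App over Aplp1), 0.963 (App over Aplp2), 0.893 (Aplp1 over Aplp2), 1.38 (Clu over Apoe), 2.25 (App over Apoe) and 1.63 (App over Clu). From 5 min they were 0.833 (Adam10 over Bace1), 0.460 (Ncstn over Psen2), 0.891 (Clu over Apoe), 0.825 (App over Apoe) and 0.926 (App over Clu), and TPM gave 2.47 for Clu over Apoe and 0.820 for App over Clu. App stood at 1.43 times the median of genes of like length with at least 200 counts, against 1.39. Depth limits Psen2 (28 counts at 60 min) most, then Bace1 (115) and Adam10 (181). No paired analysis was possible because each time has 1 library with no replicate number.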

Other observations

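Of 13 other genes linked to late-onset Alzheimer disease, 11 were in the count table and 9 were tested. All 9 were called lower on the deposited library factors (94.2% of all genes were), and 0 of 9 were called relative to other mRNAs. Their median ratio at 60 min was 0.0994, against 0.181 over all genes, and 1 of 11, the membrane-bending gene Bin1, lay above the median of all genes, by less than its counting interval (0.181, interval 0.158 to 0.207). Inpp5d, a lipid phosphatase of blood and microglial cells, went from 196 counts to 12 between 0 and 60 min, a ratio of 0.0629 (0.0320 to 0.112). Trem2, a microglial receptor that is also among the microglial markers, had 50, 5, 2, 0 and 3 counts in time order, and Spi1, a transcription factor of myeloid cells, had 40, 4, 1, 1 and 0. These low counts moved with the microglial markers, whose part in them was not tested. Trem2 and Spi1 were chosen after their values were seen.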
